A study of Mus musculus with 6 samples.

Results

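The cell cycle genes described here were 48 genes in 2 arms, 18 of DNA synthesis and 30 of mitosis. They were taken by symbol from the deposited gene table of large peritoneal macrophages, where 48 of 48 were found among 20336 genes. All 48 also passed the filter on low counts, which kept 12786 genes for the test. Large peritoneal macrophages are the resident macrophages that dominate the peritoneal cavity of mice. They were sorted by surface staining after 30 min of intraperitoneal E. coli infection, and polyA RNA was sequenced in 6 libraries. The PAC knockout group (3 libraries) came from infected mice with the genotype label Cxcr3-PAC-/-, although Cx3cr1 is the driver given in the design text. The floxed control group (3 libraries) came from infected mice with the genotype label PAC F/F. No driver is named for these controls, so the driver allele and the loss of the channel cannot be told apart. PAC is the proton-activated chloride channel. The labels give neither the age of the mice nor whether each library was its own animal, and p-values therefore cover only library-to-library spread, possibly technical. Libraries from PBS-treated mice were not analysed here.

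Resident peritoneal macrophages renew themselves largely by division in place, so some of the cells are in cycle at any time. Cells that enter the cycle release E2F factors from the retinoblastoma family and transcribe the DNA synthesis genes, which license origins, supply nucleotides and copy the genome. The mitosis genes follow later. In resting cells they are held down by the DREAM complex at promoter elements called CHR (cell cycle genes homology region), and they are turned on by B-MYB and FOXM1, often with NF-Y at CCAAT boxes. In RNA from a sorted population, fewer cycling cells and less RNA per cycling cell cannot be told apart.

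Library totals ran from 15981530 to 20648832 counts. Levels are given as CPM, which are counts scaled to library size by the trimmed mean of M-values (TMM), and 3 counts in a library correspond to 0.154 to 0.190 CPM. The lowest count of any member in any library was 10. Each of 10 markers of large peritoneal macrophages, Gata6 and Timd4 among them, stood at 59.4 CPM or more in every library. Tmem206, the listed name of the PAC gene, had 4.27, 6.13 and 5.49 CPM in the knockout, against 6.33, 12.2 and 8.16 CPM in the control, without overlap. Counts over the whole gene do not measure the deleted part alone.

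The arms differed in the words of their promoters, which the choice of genes did not use. RefSeq promoter windows (GRCm38.p6, 250 bases before to 50 after the RefSeq start) were matched by symbol for 40 of the 48 members, in 43 windows; Kif20a, Stmn1, Tpx2, Aurkb, Ccna2, Ccne2, Gins2 and Mcm4 were not among them. Both strands were searched. An E2F word was any of 4 strings, the first being TTCCCGC, the next in the search being TTGGCGC, then as another form TTCGCGC, and as the last form of this word TTGCCGC. The CCAAT box was searched as its name spells it. A CHR word was either TTTGAA or its palindromic form, which reads TTCGAA on both strands. E2F words of opposite strands can overlap each other, and the reverse of an E2F word can share bases with a CCAAT box. An E2F word was in 11 of 17 DNA synthesis windows (64.7%) and 6 of 26 mitosis windows (23.1%), against 9.57% of all 32851 windows. A CHR word was in 2 of 17 DNA synthesis windows (11.8%) and 20 of 26 mitosis windows (76.9%), against 19.2% of all windows. The CCAAT box was frequent in both arms, at 64.7% of DNA synthesis and 76.9% of mitosis windows, against 37.4% of all windows. A CHR word and a CCAAT box stood together in 69.2% of mitosis windows, 11.8% of DNA synthesis windows and 7.52% of all windows. In 19 mitosis windows, of 18 genes, a CHR word began within 50 bases of the start. Matches describe letters only.

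**Figure D1:**
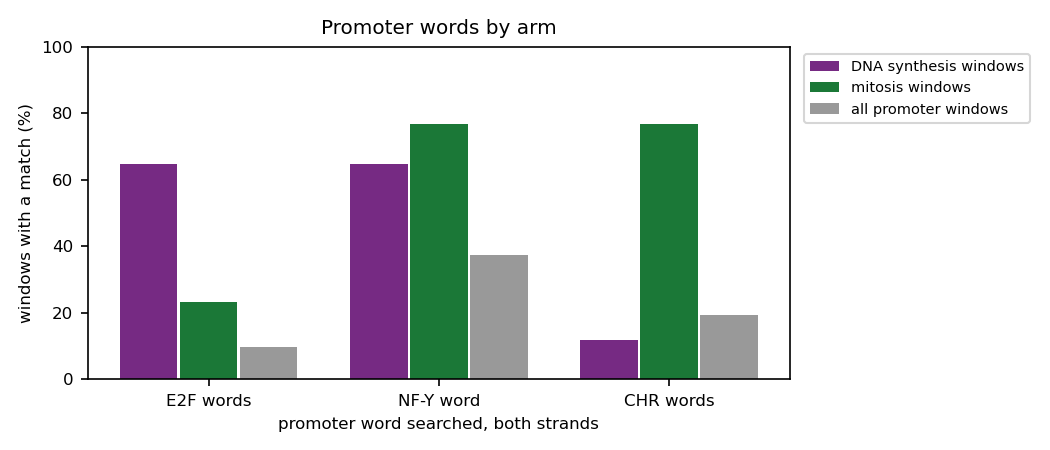
Share of promoter windows (vertical axis, %) that hold an E2F word, the NF-Y word (CCAAT box) or a CHR word (horizontal axis), in DNA synthesis windows (n = 17), mitosis windows (n = 26) and all windows (n = 32851). E2F words stand out in the DNA synthesis windows (64.7%) and CHR words in the mitosis windows (76.9%).

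The 200 bases before the RefSeq start are shown for 8 members, chosen as examples of each arm or because results turn on them. Capitals mark each E2F, CCAAT and CHR match on either strand, and every sequence runs 5′ to 3′ along the gene's own strand in GRCm38.p6. Mcm5 and Mcm6 (helicase) and Rrm2 (nucleotide supply) stand for DNA synthesis, and Cdk1, Cdc20, Kif11, Kif15 and Mki67 for mitosis.
Mcm5, chr8:75109309-75109508, plus strand: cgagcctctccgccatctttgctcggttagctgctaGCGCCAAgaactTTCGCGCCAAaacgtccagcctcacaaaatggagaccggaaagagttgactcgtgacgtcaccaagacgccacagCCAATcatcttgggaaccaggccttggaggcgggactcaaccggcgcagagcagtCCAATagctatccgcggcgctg
Mcm6, chr1:128359706-128359905, minus strand: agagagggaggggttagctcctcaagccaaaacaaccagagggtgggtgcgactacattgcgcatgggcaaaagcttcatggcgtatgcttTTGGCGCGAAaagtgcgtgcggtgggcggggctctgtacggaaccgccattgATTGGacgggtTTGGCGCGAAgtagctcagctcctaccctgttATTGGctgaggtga
Rrm2, chr12:24708054-24708253, plus strand: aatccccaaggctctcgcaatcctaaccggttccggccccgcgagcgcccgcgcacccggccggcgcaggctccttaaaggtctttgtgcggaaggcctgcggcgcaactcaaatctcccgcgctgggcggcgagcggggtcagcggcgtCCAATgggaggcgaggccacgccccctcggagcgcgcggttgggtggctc
Cdk1, chr10:69352913-69353112, minus strand: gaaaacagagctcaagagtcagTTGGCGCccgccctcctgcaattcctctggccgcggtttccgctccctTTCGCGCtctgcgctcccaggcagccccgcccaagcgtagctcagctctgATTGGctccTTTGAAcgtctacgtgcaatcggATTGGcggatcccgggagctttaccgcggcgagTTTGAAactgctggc
Cdc20, chr4:118437344-118437543, minus strand: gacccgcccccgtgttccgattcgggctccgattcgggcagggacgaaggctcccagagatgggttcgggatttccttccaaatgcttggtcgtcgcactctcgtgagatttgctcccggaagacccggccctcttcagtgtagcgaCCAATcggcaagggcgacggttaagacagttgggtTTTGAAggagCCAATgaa
Kif11, chr19:37376182-37376381, plus strand: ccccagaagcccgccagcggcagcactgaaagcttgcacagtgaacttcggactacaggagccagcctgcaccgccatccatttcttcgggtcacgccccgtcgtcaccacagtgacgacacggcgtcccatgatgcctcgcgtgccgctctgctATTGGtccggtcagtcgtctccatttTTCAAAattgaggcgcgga
Kif15, chr9:122950881-122951080, plus strand: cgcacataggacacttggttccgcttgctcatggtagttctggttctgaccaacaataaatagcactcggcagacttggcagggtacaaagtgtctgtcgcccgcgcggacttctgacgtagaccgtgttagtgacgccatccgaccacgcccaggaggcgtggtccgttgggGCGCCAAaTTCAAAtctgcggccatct
Mki67, chr7:135716380-135716579, minus strand: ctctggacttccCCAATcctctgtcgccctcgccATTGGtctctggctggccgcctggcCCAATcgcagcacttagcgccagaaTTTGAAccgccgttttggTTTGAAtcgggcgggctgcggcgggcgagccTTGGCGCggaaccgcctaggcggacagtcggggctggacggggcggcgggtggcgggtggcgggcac
Mcm5 and Mcm6 hold overlapping E2F words beside CCAAT boxes. In Rrm2 the CCAAT box is the only match shown, and its 1 E2F word lies farther out in the window. Kif11, Kif15, Cdc20 and Cdk1 hold a CHR word that begins within 19 bases of the start. In Mki67 the CHR words begin 116 and 98 bases before the start.

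None of the 48 members passed the genome-wide test. The edgeR quasi-likelihood test with Benjamini-Hochberg adjustment over 12786 genes called 0 members at an adjusted p of 0.05, as it called 0% of all tested genes, and no member's adjusted p was below 0.997. Before adjustment 4 members (8.33%) had p under 0.05, namely Tyms, Kif15, Rrm2 and Kif11, all higher in the knockout. Of all tested genes 4.18% reached that level, 2.09% being higher in the knockout and 2.09% lower. DESeq2 and limma-voom also called 0 members after adjustment, where they called 22 and 0 of all 12786 tested genes. With these tools 6 and 3 of the 48 members had an unadjusted p under 0.05. Of all 12786 tested genes 582 reached that level with DESeq2 and 726 with limma-voom. The authors' deposited table gave no member an adjusted p under 0.05, and its lowest value for a member was 0.691, for Kif11. On simulated counts of this comparison, with changes placed in genes of average log2 CPM above 2, the test recovered 59% of 2-fold changes. That simulation drew genes independently and placed 100 2-fold changes beside 100 4-fold ones. No member had a log2 fold change above 0.91, so the 59% does not describe differences of the members' size.

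Most members nonetheless had higher values in the knockout. Of the 48, 44 (91.7%) had a positive log2 fold change (knockout over control) and 4 a negative one, whereas 48.8% of all tested genes were positive. Their median was 0.38, against -0.0079 over all tested genes. The median was 0.31 for the 18 DNA synthesis genes, of which 16 were positive, and 0.41 for the 30 mitosis genes, of which 28 were positive. The 4 negative ones were Mcm3 (-0.032), Cdt1 (-0.21), Aurka (-0.20) and Cenpf (-0.044). These counts are not 48 separate observations, since most members were highest and lowest in the same libraries. The members were also chosen with earlier results of these data known, so the contrast with all tested genes is a description and not a test. The groups did not overlap for 1 member (2.08%), Tyms, with the knockout higher, against 4.47% of all tested genes with the knockout higher.

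**Figure D2:**
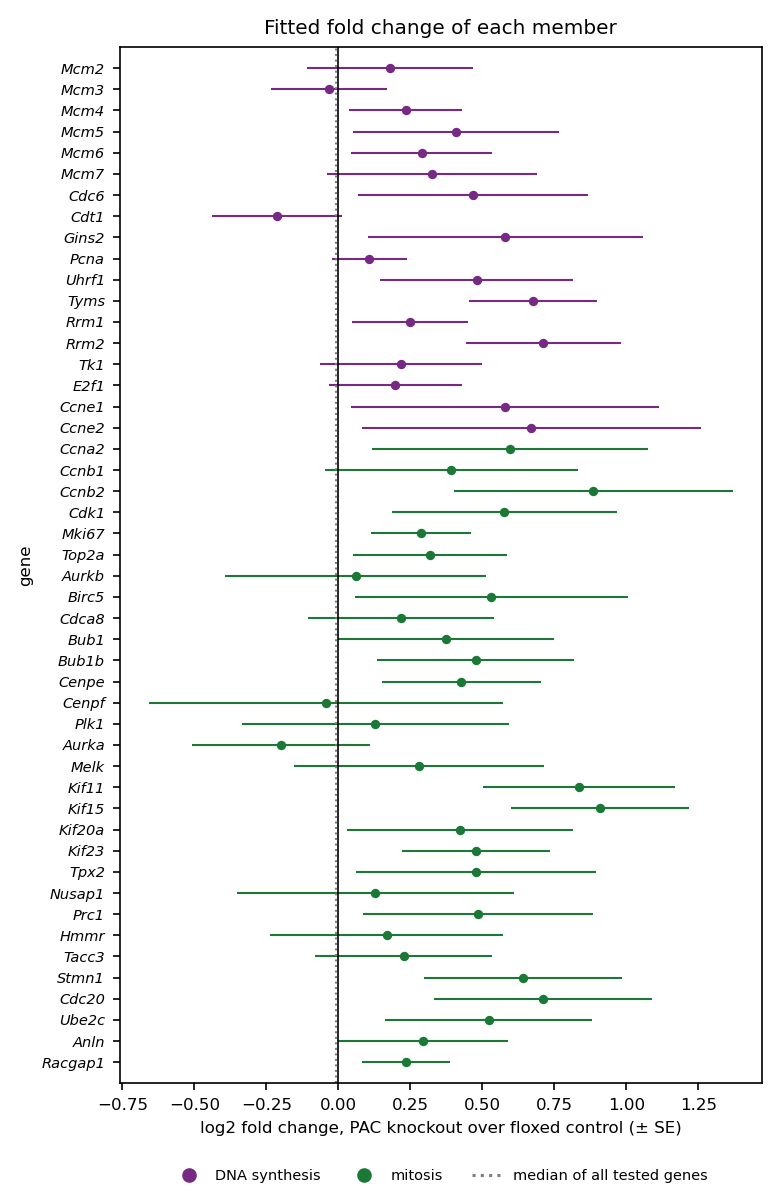
Fitted log2 fold change, PAC knockout over floxed control (horizontal axis, point ± SE, n = 3 libraries each), of the 48 members (vertical axis), coloured by arm; the dotted line is the median of all tested genes. Most points lie right of 0, at medians of 0.31 for DNA synthesis and 0.41 for mitosis, and none passed the adjusted threshold.

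Per library, both arms overlapped between genotypes. The DNA synthesis genes summed to 548, 375 and 588 CPM in knockout libraries 1, 2 and 3, against 337, 431 and 506 CPM in control libraries 1, 2 and 3. Knockout libraries 1 and 3 lay above all controls, and knockout library 2 lay below control libraries 2 and 3. The means were 504 ± 113 CPM in the knockout and 425 ± 84.7 CPM in the control (SD, n = 3 each), a 1.19-fold ratio. The mitosis genes summed to 737, 640.4 and 995 CPM in the knockout libraries, against 559, 608 and 683 CPM in the control libraries. Knockout library 2 again lay inside the control range, and knockout library 3 was the highest. The means were 791 ± 183 CPM in the knockout and 617 ± 62.6 CPM in the control (SD, n = 3 each), a 1.28-fold ratio.

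Most members were high and low in the same libraries. Knockout library 3 was the highest of all 6 libraries for 36 of 48 members, 12 of DNA synthesis and 24 of mitosis. Control library 1 was the lowest for 26 members, 10 of DNA synthesis and 16 of mitosis. Within the knockout, library 2 was the lowest for 45 of 48 members, and it was below the control mean for 38. Knockout library 3 was above all controls for 41 members, knockout library 1 for 29 and knockout library 2 for 2. Within the control, library 3 was the highest for 37 members. For the median mitosis gene, knockout 3 was 2.24 times as high as knockout 2, and control 3 was 1.84 times as high as control 1. For the median DNA synthesis gene these ratios were 1.65 and 1.61. The same counts and ratios were not made over all tested genes. Whether these library orders are particular to the members was therefore not tested.

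**Figure D3:**
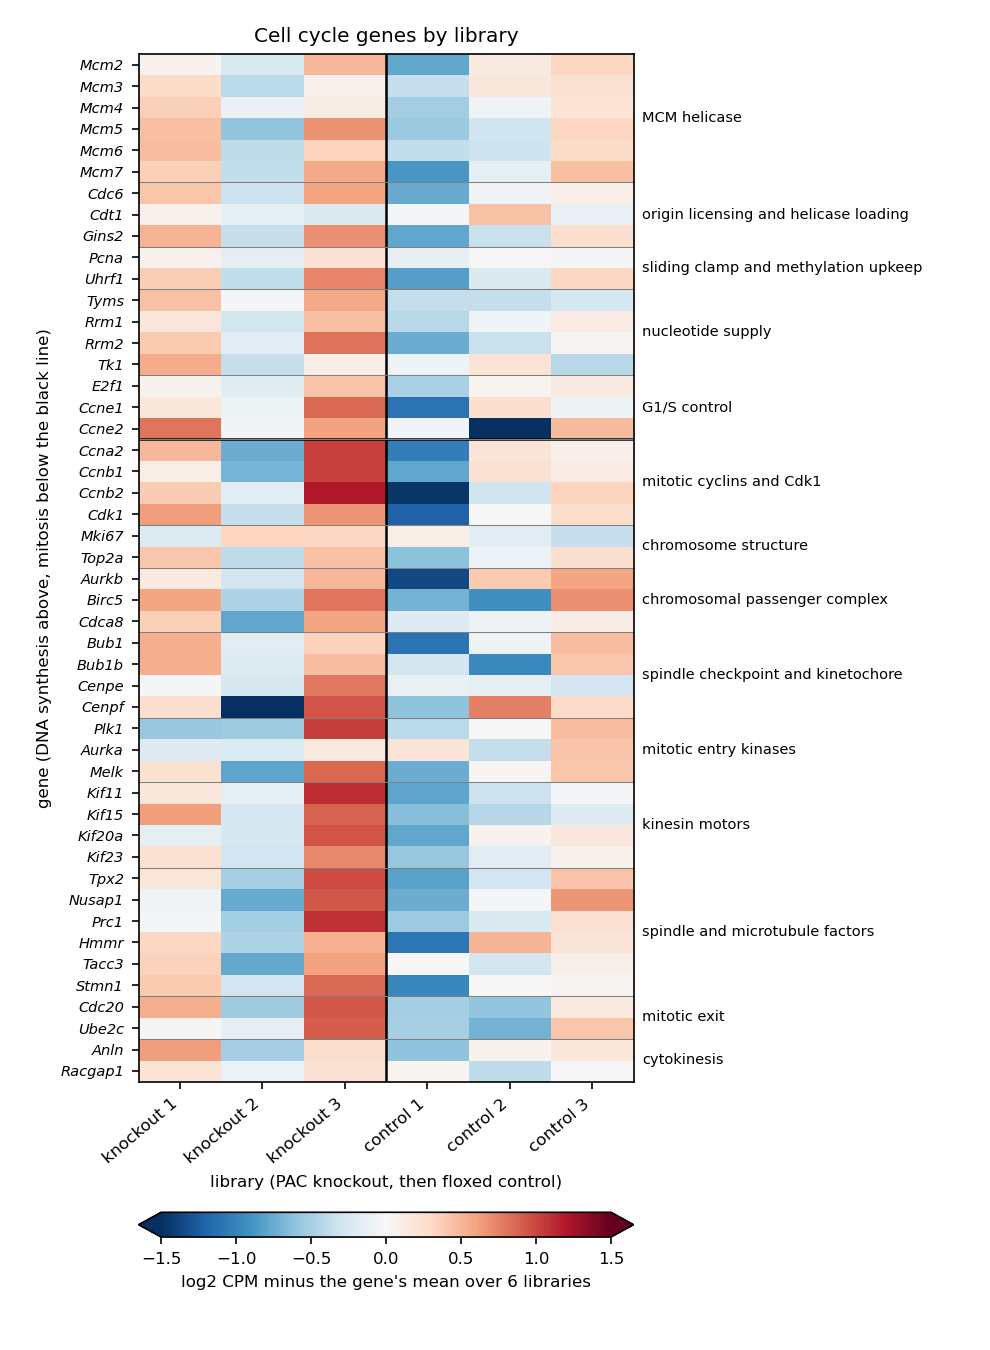
Log2 CPM of each of the 48 members minus its own mean over 6 libraries (colour), by library (columns, knockout left, control right) and by role (rows). Knockout 3 is the highest library for 36 members and control 1 the lowest for 26, while the Mki67 row runs against most rows around it.

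Mki67, which encodes the proliferation antigen Ki-67 that coats mitotic chromosomes, did not follow the rest of its arm (chromosome 7, 135689784 to 135716361, minus strand of GRCm38, ENSMUSG00000031004). Its levels were 217, 312 and 311 CPM in knockout libraries 1, 2 and 3, against 269, 222 and 197 CPM in control libraries 1, 2 and 3. Knockout library 2 was its highest and control library 1 stood above the other controls, whereas these libraries held the least RNA of the other mitosis genes. The means were 280.1 ± 54.7 CPM in the knockout and 229 ± 36.9 CPM in the control (SD, n = 3 each), with a log2 fold change of 0.29 (SE 0.17). Mki67 alone made up 29.4, 48.8 and 31.2% of the mitosis sum in the knockout libraries and 48.2, 36.6 and 28.8% in the control libraries. The ratio of its CPM to that of Top2a, a DNA topoisomerase of dividing cells, was 2.52, 6.29 and 3.55 in the knockout libraries and 6.41, 3.65 and 2.58 in the control libraries. Per length, Mki67 averaged 28.4 FPKM in the authors' values, above every other mitosis member, where the median of that arm was 2.85 FPKM. No other annotated gene shares its exon bases.

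The order of the libraries by the balance between the arms turned on Mki67. The mitosis sum was 1.34, 1.71 and 1.69 times the DNA synthesis sum in knockout libraries 1, 2 and 3, against 1.66, 1.41 and 1.35 times in control libraries 1, 2 and 3. Without Mki67, a choice made after seeing the data, the ratios were 0.949, 0.875 and 1.16 in the knockout, against 0.859, 0.895 and 0.961 in the control. Knockout 2 and control 1 thereby went to the low end of the 6 libraries, and knockout 3 alone had more mitosis than DNA synthesis RNA. The mitosis sum without Mki67 was 520.3, 328 and 684 CPM in the knockout, against 289.5, 386 and 487 CPM in the control, which is the order of libraries of the DNA synthesis sums. On the log2 scale the mitosis sum relative to the DNA synthesis sum was higher in the knockout by 0.10 with Mki67, where the SD between libraries of a genotype was 0.18. Without Mki67 it was higher by 0.13, where that SD was 0.16.

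**Figure D4:**
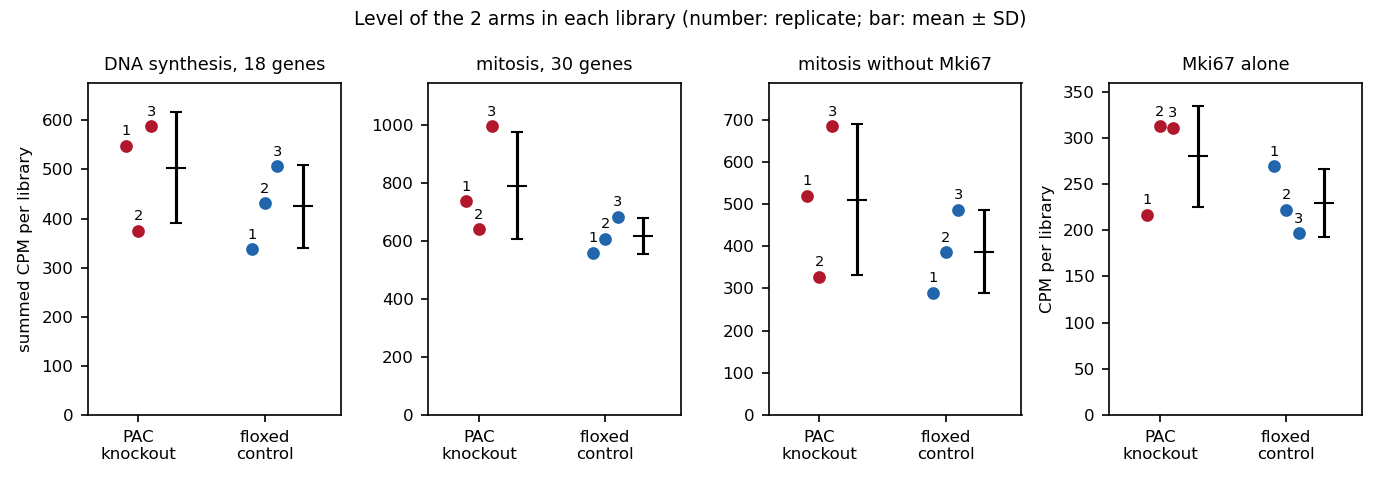
Summed CPM per library (vertical axes, from 0) of the DNA synthesis arm, the mitosis arm, the mitosis arm without Mki67, and the CPM of Mki67 alone, for PAC knockout (left, red) and floxed control (right, blue); digits are replicate numbers and bars are mean ± SD (n = 3). The DNA synthesis panel and the mitosis panel without Mki67 share 1 order of libraries, and Mki67 has another, with knockout 2 highest.

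Among the DNA synthesis genes the nucleotide enzymes had the largest ratio of summed levels, 1.35-fold. Tyms, thymidylate synthase, makes the thymidine nucleotide for DNA (chromosome 5, 30058202 to 30073617, minus strand of GRCm38, ENSMUSG00000025747). It had 16.5, 11.9 and 18.01 CPM in knockout libraries 1, 2 and 3, against 9.52, 9.45 and 10.1 CPM in control libraries 1, 2 and 3. Every knockout library was above every control. Its log2 fold change was 0.68 (SE 0.22), and the exact permutation p (two-sided) was 0.10, which 3 against 3 libraries cannot go below. Groups without overlap always give that value, so it adds nothing to the lack of overlap. The same exact p was 0.20 for each of Rrm2, Kif11 and Kif15. Rrm2 encodes the cell-cycle-bound subunit of ribonucleotide reductase (chromosome 12, 24708241 to 24714146, plus strand of GRCm38, ENSMUSG00000020649). It had 28.7, 19.4 and 38.3 CPM in the knockout, against 12.97, 17.3 and 22.5 CPM in the control. Knockout 2 lay inside the control range, and the log2 fold change was 0.71 (SE 0.27). Rrm1, the large subunit of the same enzyme, stood at a log2 fold change of 0.25 (SE 0.20). Tk1, the kinase that salvages thymidine, stood at 0.22 (SE 0.28) and was highest in knockout 1. These 4 genes summed to 99.98, 68.5 and 115 CPM in the knockout libraries, against 58.6, 72.3 and 78.9 CPM in the control libraries.

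The 6 Mcm genes encode the ring of the replicative helicase, and their RNA summed to 289, 178 and 291 CPM in the knockout libraries, against 158, 213 and 278 CPM in the control libraries. Knockout 2 and control 1 were the low libraries, and the ratio of means was 1.17-fold. Log2 fold changes ran from -0.032 for Mcm3 to 0.41 (SE 0.36) for Mcm5, with Mcm2, Mcm4, Mcm6 and Mcm7 at 0.18, 0.23, 0.29 and 0.32. Mcm6 had 74.8, 41.5 and 68.4 CPM in the knockout, against 42.0, 43.6 and 65.8 CPM in the control. Its knockout libraries 1 and 3 stood above all controls and its knockout library 2 below all of them.

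The factors that load the helicase differed among themselves. Cdc6, which helps place the helicase on origins, had a log2 fold change of 0.47 (SE 0.40). Gins2, a subunit of the active helicase, had 0.58 (SE 0.48), but 67.3% of its exon bases are shared with Gse1 on the opposite strand, so its reads are uncertain. Cdt1, the partner of Cdc6 that is destroyed once replication starts, had 13.05, 11.3 and 10.7 CPM in the knockout, against 12.2, 16.9 and 11.5 CPM in the control. Its log2 fold change was -0.21 (SE 0.23), and knockout 3, the highest library for most members, was its lowest.

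Pcna, the sliding clamp that holds DNA polymerases on the template, was the steadiest of the 48 members (chromosome 2, 132249162 to 132253314, minus strand of GRCm38, ENSMUSG00000027342). It had 91.2, 79.2 and 100.9 CPM in the knockout, against 79.8, 86.9 and 85.1 CPM in the control. Its highest library exceeded its lowest 1.27-fold, where the median of the arm was 2.18-fold. It was also the highest member per length, at 40.7 FPKM in the authors' values, and its log2 fold change was 0.11 (SE 0.13). Uhrf1, which carries DNA methylation over to new strands, had 23.8, 14.3 and 30.5 CPM in the knockout, against 10.4, 15.9 and 23.0 CPM in the control, a log2 fold change of 0.48 (SE 0.33).

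The 3 G1/S regulators had positive log2 fold changes. E2f1, an E2F factor that opens S phase, had 17.4, 14.9 and 22.7 CPM in the knockout, against 12.05, 17.4 and 18.5 CPM in the control, a log2 fold change of 0.20 (SE 0.23). The E-type cyclins switch on Cdk2 at the G1/S boundary. Ccne1 averaged 2.58 CPM in the knockout and 1.73 CPM in the control, and Ccne2 averaged 2.84 CPM in the knockout and 1.78 CPM in the control. Their log2 fold changes of 0.58 (SE 0.54) and 0.67 (SE 0.59) were close to the size of their errors, and 17.4% of the exon bases of Ccne2 are shared with Ints8.

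In the mitosis arm the kinesin motors and the mitotic cyclins had the largest ratios of summed levels, 1.58-fold and 1.55-fold. Kif11 is the motor that pushes spindle poles apart (chromosome 19, 37376403 to 37421859, plus strand of GRCm38, ENSMUSG00000012443). It had 21.9, 17.8 and 42.1 CPM in knockout libraries 1, 2 and 3, against 11.2, 15.5 and 19.1 CPM in control libraries 1, 2 and 3. Knockout 2 lay inside the control range, and the log2 fold change was 0.84 (SE 0.33), or 0.38 without knockout library 3. Kif15 works beside Kif11 on the spindle (chromosome 9, 122951046 to 123018733, plus strand of GRCm38, ENSMUSG00000036768). It had 13.05, 7.08 and 15.6 CPM in the knockout, against 5.41, 6.26 and 7.37 CPM in the control. Knockout 2 was just below control 3, and the log2 fold change was 0.91 (SE 0.31). The cytokinesis motors Kif23 and Kif20a stood at 0.48 (SE 0.26) and 0.42 (SE 0.39). In GENCODE M21, where its start or end differs from the deposited one, Kif20a shares 29.3% of its exon bases with Cdc23.

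Ccnb2, a B-type cyclin that drives entry into mitosis with Cdk1, had the widest range of the 48 members (chromosome 9, 70407692 to 70421547, minus strand of GRCm38, ENSMUSG00000032218). It had 13.8, 9.48 and 24.3 CPM in the knockout, against 3.86, 8.58 and 13.4 CPM in the control. Its knockout 3 was 6.30 times as high as its control 1, and the log2 fold change was 0.89 (SE 0.48). Ccna2, the cyclin of S phase and early mitosis, stood at 0.60 (SE 0.48), Cdk1 itself at 0.58 (SE 0.39) and Ccnb1 at 0.39 (SE 0.44). These 4 genes summed to 55.1, 29.3 and 80.9 CPM in the knockout libraries, against 18.4, 41.5 and 46.5 CPM in the control libraries. Ccna2 shares 12.5% of its exon bases with Exosc9, and the pseudogenes Ccnb1-ps and Ccnb2-ps held 63 and 40 counts over all libraries.

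Cdc20 and Ube2c, activator and ubiquitin-conjugating enzyme of the anaphase-promoting complex, act at the exit from mitosis. They summed to 24.6, 17.8 and 40.1 CPM in the knockout libraries, against 14.98, 13.4 and 26.7 CPM in the control libraries, with knockout 3 the highest and control 3 above knockout 1. Their log2 fold changes were 0.71 (SE 0.38) and 0.52 (SE 0.36), and 22.8% of the exon bases of Ube2c are shared with Tnnc2. Anln, a scaffold of the contractile ring, and Racgap1, a part of the central spindle complex, stood at 0.29 (SE 0.30) and 0.23 (SE 0.15). Racgap1 had 57.8, 47.1 and 58.7 CPM in the knockout, against 50.9, 38.4 and 49.8 CPM in the control, a narrow range in this arm.

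Genes that check and hold chromosomes had positive log2 fold changes except Cenpf. The spindle checkpoint kinase Bub1 and its relative Bub1b stood at log2 fold changes of 0.37 (SE 0.38) and 0.48 (SE 0.34). Cenpe, a kinetochore motor, had 11.9, 10.2 and 20.8 CPM in the knockout, against 11.1, 10.96 and 9.85 CPM in the control, so that knockout 3 alone stood clearly above the controls. Cenpf, another kinetochore protein, had 9.55, 2.59 and 15.4 CPM in the knockout, against 5.25, 13.5 and 9.74 CPM in the control, with the highest and the lowest value both in the knockout. The chromosomal passenger complex corrects faulty attachments. In it Birc5 (survivin) stood at 0.53 (SE 0.47), Cdca8 (borealin) at 0.22 (SE 0.32) and the kinase Aurkb at 0.060 (SE 0.45). Aurkb had 13.5, 10.1 and 17.2 CPM in the knockout, against 4.79, 16.00 and 18.4 CPM in the control, with control 1 far below the rest, and without that library its log2 fold change was -0.34.

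The entry kinases had values on both sides of 0. Plk1, which acts on centrosomes and kinetochores, had 3.26, 3.35 and 9.92 CPM in the knockout, against 3.66, 4.81 and 6.69 CPM in the control. Its log2 fold change was 0.13 (SE 0.46), and -0.61 without knockout library 3. Aurka, the centrosomal Aurora kinase, had 5.04, 4.995 and 6.37 CPM in the knockout, against 6.59, 4.52 and 7.74 CPM in the control, and Melk, a kinase of dividing cells, stood at 0.28 (SE 0.43).

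The 6 spindle and microtubule factors had positive log2 fold changes, from 0.13 (SE 0.48) for Nusap1, a microtubule bundler, to 0.64 (SE 0.34) for Stmn1. Stmn1, stathmin, which destabilises microtubules, had 32.9, 20.5 and 45.2 CPM in the knockout, against 12.7, 24.9 and 25.7 CPM in the control. Tpx2, which activates Aurora A on the spindle, stood at 0.48 (SE 0.42). Prc1, which bundles the midzone, stood at 0.48 (SE 0.40) and shares 11.1% of its exon bases with Rccd1. Hmmr and Tacc3, both spindle proteins, stood at 0.17 (SE 0.40) and 0.23 (SE 0.31). Top2a had 86.0, 49.7 and 87.4 CPM in the knockout, against 42.0, 60.8 and 76.1 CPM in the control, in the order of libraries of the DNA synthesis sums, with a log2 fold change of 0.32 (SE 0.27).

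The size of the difference depended on single libraries. The DNA synthesis median was 0.53 without knockout library 2 and 0.58 without control library 3, but 0.21 without knockout library 3 and 0.19 without control library 1. The mitosis median was 0.62 without knockout 2 and 0.58 without control 3, but 0.15 without knockout 3 and 0.25 without control 1. Without knockout library 3, 33 of 48 members were positive, and without control library 1, 39 were. The members at an unadjusted p under 0.05 in edgeR numbered 14 of 48 without knockout 2, 11 without control 3 and 1 without knockout 3. Over all tested genes the counts were 562 of 13324, 1033 of 13260 and 691 of 13189 in the same order. With any 1 of the 6 libraries left out, 0 members were called by edgeR after adjustment.

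**Figure D5:**
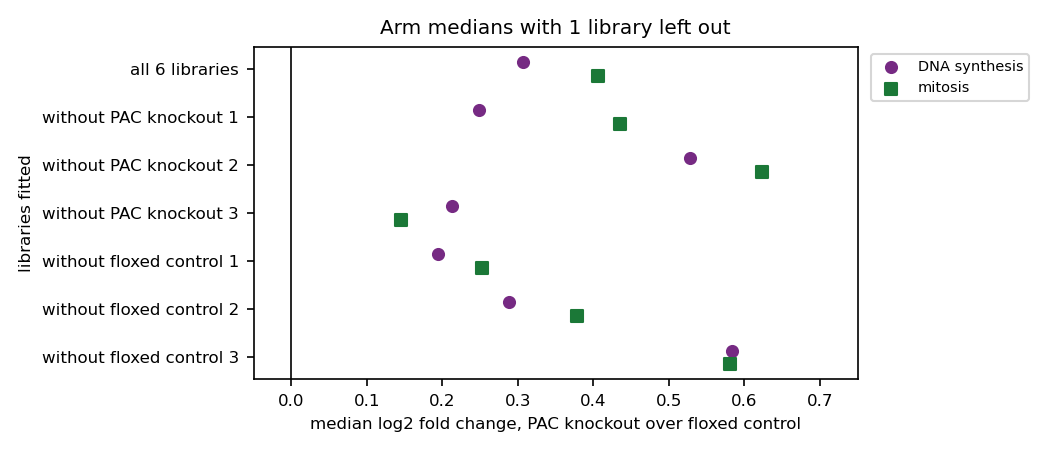
Median log2 fold change, PAC knockout over floxed control (horizontal axis), of the DNA synthesis genes (n = 18) and mitosis genes (n = 30) with all 6 libraries and with each library left out (vertical axis). All medians are above 0, and the mitosis median is smallest without knockout 3 (0.15) and largest without knockout 2 (0.62).

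The rest of the cell cycle machinery, in 12 further lists of genes, had 0 genes called by edgeR and 1, Kif4, at an unadjusted p under 0.05. Of all tested genes 4.18% reached that level. Values are log2 fold changes, and medians stand beside the -0.0079 of all tested genes. E2F, FOXM1 and B-MYB factors had 7 of 7 positive (median 0.28), with E2f8 at 0.46 (SE 0.37) and E2f2 at 0.50 (SE 0.40). Other mitotic kinases, motors and regulators had 17 of 24 positive (median 0.20). In that list Kif4, a chromosome-bound kinesin, stood at 1.06 (SE 0.40), with 9.84, 4.11 and 10.4 CPM in the knockout, against 3.66, 2.73 and 5.26 CPM in the control. Centromere and kinetochore genes had 11 of 15 positive (median 0.26), with Cenph at 0.96 (SE 0.74) and Cenpi at 0.61 (SE 0.47). Replication fork genes had 16 of 19 positive (median 0.16), with the DNA ligase Lig1 at 0.53 (SE 0.34) and the polymerase subunit Pole at 0.34 (SE 0.25).

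Most other lists had medians nearer to 0. Origin licensing and firing genes had 9 of 14 positive (median 0.091), with the origin recognition subunit Orc2 at 0.34 (SE 0.21) and the kinase Cdc7 at 0.79 (SE 0.50). Condensin and cohesin genes had 9 of 13 positive (median 0.070), with Ncapd3 at 0.30 (SE 0.15) and Ncapg at 1.17 (SE 0.71). Nucleotide supply genes outside the arm had 6 of 10 positive (median 0.028), with Dctd at 0.98 (SE 0.72) and Dut at 0.58 (SE 0.45). The anaphase-promoting complex had 9 of 13 positive (median 0.076), with Anapc7 at -0.28 (SE 0.20) and its activator Fzr1 at 0.21 (SE 0.16). G1 cyclins and kinases had 4 of 7 positive (median 0.015), with the phosphatase Cdc25a at 0.48 (SE 0.35) and the D-type cyclin Ccnd3 at 0.12 (SE 0.14). Pocket proteins and the DREAM complex had 6 of 12 positive (median 0.014), with Rb1 at -0.16 (SE 0.16) and Lin9 at 0.21 (SE 0.28). DNA damage checkpoint genes had 4 of 8 positive (median -0.066), with the kinases Atr at -0.34 (SE 0.18) and Atm at -0.24 (SE 0.24). CDK inhibitors, which halt the cycle, had 5 of 7 positive (median 0.28). Cdkn2a had 1.72, 3.48 and 5.15 CPM in the knockout, against 2.06, 1.86 and 1.37 CPM in the control, a log2 fold change of 0.97 (SE 0.50). Cdkn2d stood at -0.41 (SE 0.21), with 10.97, 15.3 and 18.6 CPM in the knockout, against 19.9, 19.4 and 20.3 CPM in the control, and its groups did not overlap, as for 4.86% of all tested genes with the knockout lower. Cdkn1c, named after its values were seen, was the list's 1 gene without overlap and with the knockout higher, as for 4.47% of all tested genes. It stood at 0.41 (SE 0.31), with 5.51, 7.46 and 5.71 CPM in the knockout, against 5.30, 5.16 and 3.63 CPM in the control. Other lists held such genes too. With the knockout higher they were 2 for origins and 1 each for DREAM, condensin and cohesin, and the anaphase-promoting complex. With the knockout lower they were 1 each for nucleotide supply and the DNA damage checkpoint.

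Regulators of macrophage proliferation had mostly lower values in the knockout. Of 13 listed genes 12 were tested, with 3 of 12 positive (median -0.17) and 0 called. Maf encodes a transcription factor that restrains the division of mouse macrophages. Maf had 66.9, 55.3 and 62.6 CPM in the knockout, against 75.4, 103 and 68.1 CPM in the control, a log2 fold change of -0.42 (SE 0.17). Klf4, a zinc finger factor of macrophage differentiation, had 140.1, 156 and 171 CPM in the knockout, against 208, 227 and 198 CPM in the control, a log2 fold change of -0.44 (SE 0.13). For Maf and Klf4, the 2 genes of the list at an unadjusted p under 0.05, the groups did not overlap. Of all tested genes 2.09% reached that level with the knockout lower, and 4.86% had no overlap with the knockout lower. Csf1r, the receptor for the main macrophage growth factor, stood at 0.071 (SE 0.13), Myc at -0.091 (SE 0.25), Bhlhe40 at -0.33 (SE 0.29) and Gata6, the factor that maintains these macrophages, at 0.27 (SE 0.17). Csf1, the growth factor itself, stood at 0.17 (SE 0.15), Il4ra, a receptor chain for interleukin 4, at -0.25 (SE 0.24), Csf2ra at -0.0092 (SE 0.14), Klf2 at -0.065 (SE 0.30) and Bhlhe41, with the widest error of these, at -0.58 (SE 0.72). Mycl did not pass the filter on low counts.

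RNA of other cells differed between libraries as well, and its part in these results was not tested. The 9 markers of small peritoneal macrophages and monocytes, 8 of them tested and 7 of those negative, summed to 435 to 1112 CPM in the knockout and 1195 to 1609 CPM in the control, without overlap. Their median log2 fold change was -1.29. Of the 8, 5 were lower at an unadjusted p under 0.05 in edgeR, against 2.09% of all tested genes. Within the knockout that sum was lowest in library 2 and highest in library 3, and within the control it was lowest in library 1, as for most members. Its highest control was library 2, whereas control 3 was the highest control for 37 members. Ly6c2, a defining monocyte marker, was at 0 in knockout 3 and control 1. The 10 B cell markers, all tested and all negative in the fit, summed to 66.3 to 286 CPM in the knockout and 43.1 to 498 CPM in the control, and no marker was at 0. The 10 T and NK cell markers, 3 of them tested, summed to 5.63 to 15.1 CPM in the knockout and 2.95 to 12.9 CPM in the control, and Cd3d was at 0 in knockout 3 and control 3. The 8 mast cell markers, 6 of them tested and all 6 positive, summed to 140.0 to 249.7 CPM in the knockout and 56.7 to 147 CPM in the control, most of it from Hdc. Their median log2 fold change was 1.68. Of the 6, 2 were higher at an unadjusted p under 0.05 in edgeR, against 2.09% of all tested genes.

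Some reads cannot be assigned with certainty. No strand setting is stated, and 15 of the 48 members share exon bases with another gene in GENCODE M21 (GRCm38), 6 of them over more than 10% of their exon bases (Gins2, Kif20a, Ube2c, Ccne2, Ccna2 and Prc1). The start and end in GENCODE M21 were those of the deposited gene table for 47 members, but not for Kif20a. The share of Kif20a may therefore differ in the gene model that was counted. Pcna has a pseudogene copy, Pcna-ps2, with 394 counts over all libraries.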

How the data were processed

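PolyA RNA of sorted macrophages was measured in 3 PAC knockout and 3 floxed control libraries, with totals of 15981530 to 20648832 counts. Per the submitters' processing notes, reads were mapped to GRCm38/mm10 by HISAT2 2.0.5, and featureCounts 1.5.0-p3 assigned them to genes. The sources used here do not give the annotation release, the strand setting or the treatment of multi-mapping reads. The deposited table holds raw counts, which were tested. It also holds FPKM, which the authors computed from gene length and count, and the authors' own log2 fold changes and adjusted p-values, for which the sources used here name no test.

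Genes passing edgeR's default expression filter were scaled by TMM and tested with the robust quasi-likelihood test of edgeR 4.0.16 (R 4.3.3), two-sided, genotype being the single term, with Benjamini-Hochberg adjustment over all 12786 genes. The SE comes from the F statistic, and CPM use TMM-scaled totals of tested genes. The members and lists were chosen with earlier results of these data known, so lists are described by counts and medians. All members could be named, as could the regulators of macrophage proliferation; the values of 1 of the 12 tested ones are not reported here. Of each other list, up to 4 genes at an unadjusted p under 0.05 were named, or otherwise the 2 of smallest p. The chi-square per gene between any pair of libraries was at least 19.6. Floors of 3 counts cover counting error only. On simulated counts of 12786 genes the test recovered 94% of 4-fold changes among 100 genes, with 10 false calls. Alternatives were DESeq2 1.42.0, its size factors in edgeR, library totals, no filter or a stricter one, limma-voom with sample quality weights (limma 3.58.1), a replicate block, each library left out and a threshold of 0.1. Leaving out Mki67 was added after seeing the data.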

Additional observations from a re-analysis of the deposited data

How the results depend on the processing

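The count of called members was 0 under all alternatives run. The count of all genes called was 0 with edgeR, but 38 with no filter on low counts and 22 with DESeq2, and with 1 library left out it ran from 0 to 18 (5 without knockout library 1, 2 without control library 1 and 18 without control library 3). The cause was not tested. With the replicate block 0 genes and 0 members were called. No pairing of libraries by replicate number is stated. Same-numbered deviations correlated at -0.048, -0.061 and 0.085 over all tested genes. Over the members alone they correlated at 0.015, -0.15 and 0.27, and the highest value of any pair was 0.40, for knockout 2 with control 1. Over all tested genes 2 of the 6 libraries matched best with their own number, knockout 3 and control 3. These were also the closest pair of libraries, with a chi-square per gene of 19.6. Whether libraries of the same number shared a batch was not tested. Under other scalings, filters and tools the DNA synthesis median ran from 0.29 to 0.32 and the mitosis median from 0.27 (limma-voom) to 0.41. Of 672 member values under alternatives 25 changed sign, in 14 members, and 0 passed the threshold. The log2 fold change of Plk1 was -0.14 and that of Nusap1 -0.012 with limma-voom, and that of Plk1 was -0.026 with the replicate block. With 1 library left out, log2 fold changes ran from -0.085 to 0.40 for Mcm2, -0.19 to 0.14 for Mcm3, -0.040 to 0.41 for Tk1, -0.16 to 0.71 for Ccnb1, -0.34 to 0.40 for Aurkb, -0.61 to 0.40 for Plk1 and -0.065 to 0.63 for Kif20a. They ran from -0.64 to 0.40 for Cenpf, -0.44 to 0.55 for Nusap1, -0.11 to 0.77 for Prc1, -0.051 to 0.53 for Cdca8, -0.17 to 0.50 for Hmmr, -0.17 to 0.61 for Melk and -0.045 to 0.53 for Tacc3. Depth limits most the members that averaged under 5 CPM in both groups, Gins2, Cdc6, Ccne1 and Ccne2.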
